A study of Mus musculus with 8 samples.

Results

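The Fc receptor genes described here are 10 genes taken by name from the 35944 genes of the table, with no measured value in the rule. They fall into 3 myeloid activating receptors (Fcgr1, Fcgr3, Fcgr4), the shared signalling chain Fcer1g, the inhibitory receptor Fcgr2b, the neonatal receptor Fcgrt and 4 receptors of B cells (Fcmr, Fcer2a, Fcrl1, Fcrla). RNA came from mouse buffy coat, the layer of spun blood that collects leukocytes and platelets. Mice had received PM2.5, the fine fraction of airborne particles, or PBS, a buffered saline control, for 24 weeks. The PM2.5 group held replicates 9, 17, 18 and 21 and the PBS group replicates 4, 10, 12 and 16, named by the numbers in their labels. The sources used here give no strain, sex, age, dose or route for these groups. Nor do the labels tie each of the 8 libraries to its own animal, and the spread behind the p-values may be technical.

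The libraries held 72081018 to 89032794 expected counts, of which the 4 haemoglobin genes took 86.7% to 88.6% in PM2.5 libraries and 82.3% to 87.9% in PBS libraries. Red cell RNA therefore dominated a layer that is named for white cells, and 9637638 to 12752765 counts per library were left for all other genes. Markers of neutrophils, monocytes, B cells, T cells, natural killer cells and platelets were all counted. Levels between libraries are CPM, counts scaled to a common library size with TMM factors, and levels between genes are FPKM, which also divides by transcript length. Fold changes and p-values are from edgeR's quasi-likelihood test with Benjamini-Hochberg adjustment over 10361 genes, and a gene was called at an adjusted p under 0.05.

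Fc receptors bind the constant region of antibodies and couple antibody to cell behaviour. Activating IgG receptors of myeloid cells signal through the tyrosine motif (ITAM) of the gamma chain encoded by Fcer1g, and this starts phagocytosis, degranulation and cytokine release. The inhibitory receptor Fcgr2b carries an opposing motif (ITIM) that recruits the phosphatase SHIP1, and it is made by B cells and by myeloid cells. B cells also carry receptors for IgM and IgE and the Fc receptor-like proteins.

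All 10 genes were counted, and 9 of them had enough counts to be tested. Fcgr1 was under the filter on low counts, which required at least 4 libraries above a minimum level. None of the 9 was called by edgeR, where 1.60% of all genes tested were called (166 genes, 48 higher with PM2.5, or 0.463%, and 118 lower, or 1.14%). At an unadjusted p under 0.05 there were 3 of 9, Fcer1g, Fcrl1 and Fcrla, against 18% of all genes tested. Fcrl1 and Fcrla were lower among these, as were 9.24% of all genes tested. DESeq2 called 1 member, Fcrl1, where it called 3.60% of all genes. The 5 tested genes of the myeloid, signalling, inhibitory and neonatal classes had positive log2 fold changes and the 4 B cell receptors had negative ones. The median over the 9 was 0.29, against 0.04 over all genes tested. In 1 of 9 genes, Fcrl1, the groups did not overlap, against 9.66% of all genes tested (6.64% lower and 3.02% higher). In bulk RNA, fewer cells of a type and less RNA per cell cannot be told apart.

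**Figure D1:**
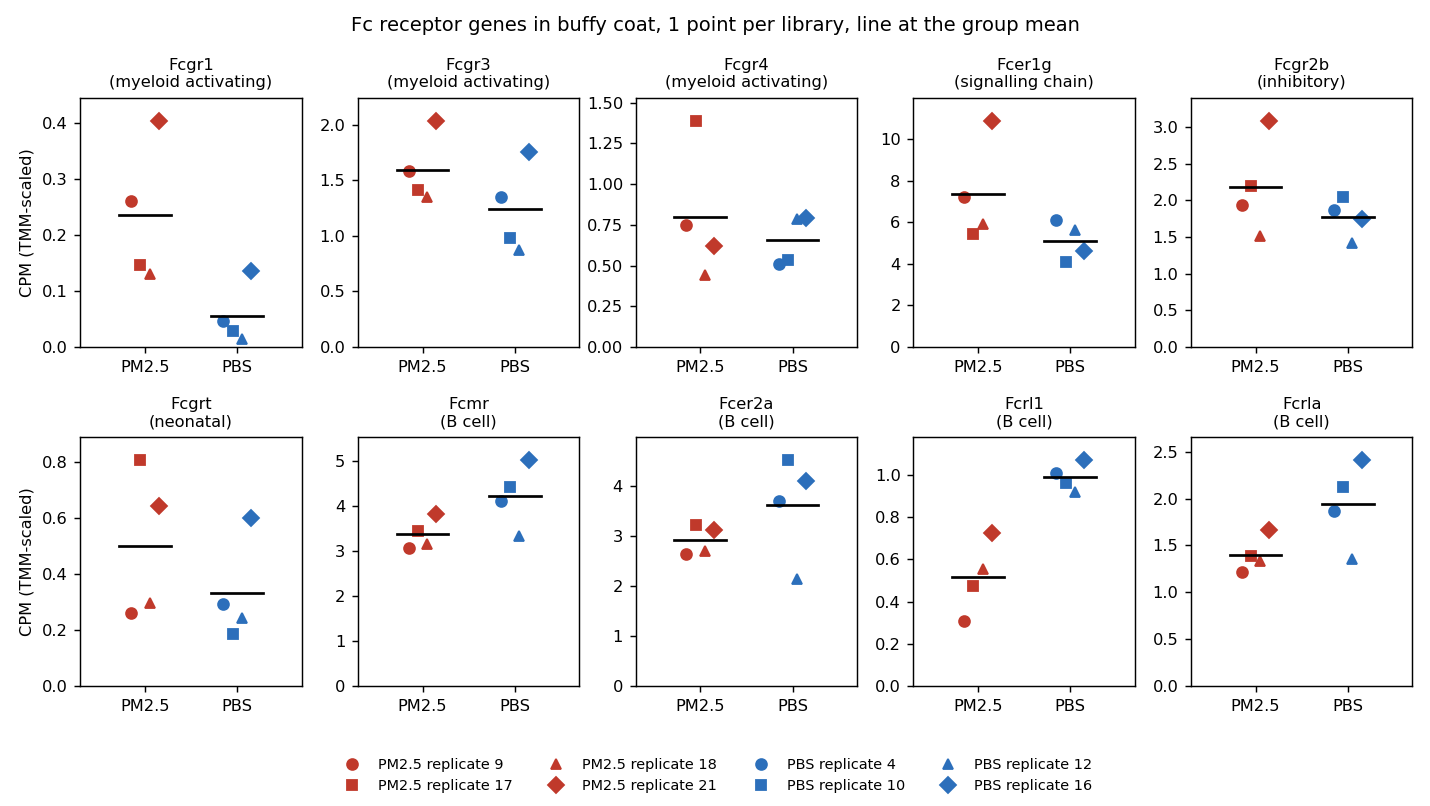
CPM of the TMM-scaled library (y axis, from 0) for each Fc receptor gene, 1 point per library and a line at the group mean, PM2.5 left and PBS right. Fcrl1 is the gene with no overlap, at 0.311 to 0.725 CPM in PM2.5 libraries and 0.918 to 1.07 CPM in PBS libraries.

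The sign of the Fcgr3, Fcgr4, Fcgr2b and Fcgrt fold changes depended on the scaling. With libraries scaled to their totals, haemoglobin included, the median log2 fold change of all genes was -0.52 and calls split into 8 higher and 475 lower. Fcgr3 was then at -0.20, Fcgr4 at -0.28, Fcgr2b at -0.25, Fcgrt at -0.03 and Fcer1g at 0.03. The SE of each was larger than its size (0.329 to 0.458), so none of these genes had a clear direction. Relative to the median of all genes under that scaling, they stood at 0.32, 0.24, 0.27, 0.49 and 0.56, close to their positions under TMM scaling (0.32, 0.24, 0.27, 0.54 and 0.49 in the same order). The B cell receptors were negative under each of 3 scalings, and Fcrl1 was called under 2 of them, at -1.53 with totals (adjusted p = 0.0209 by edgeR) and at -1.29 with haemoglobin removed before totals (adjusted p = 0.037 by edgeR). These scalings called 4.66% and 2.18% of all genes tested. With an erythroid covariate in the TMM fit, Fcer2a was at -0.03 (SE 0.279), Fcmr at -0.22 (SE 0.215) and Fcrla at -0.30 (SE 0.270). Fcrl1 was at -0.99 (SE 0.354) there.

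**Figure D2:**
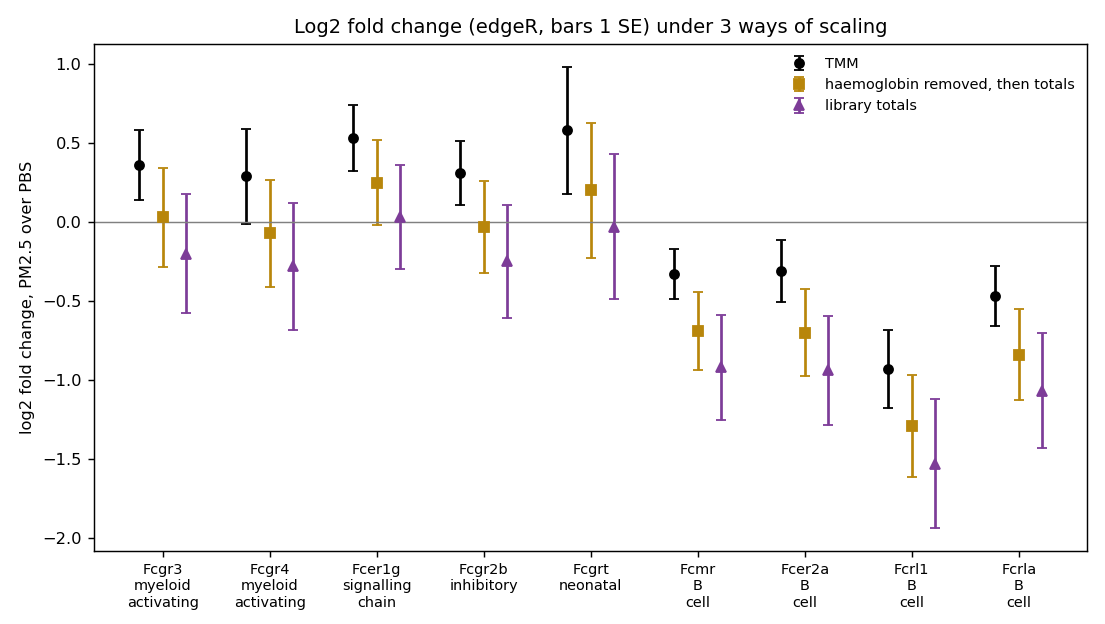
Log2 fold change of PM2.5 over PBS (y axis) with bars of 1 SE from edgeR for the 9 tested genes, under TMM scaling, totals after removing haemoglobin, and library totals. The 4 B cell receptors lie below 0 under all 3 scalings, while Fcgr3, Fcgr4, Fcgr2b and Fcgrt lie above 0 with TMM and below it with library totals.

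In level per length, Fcer1g was far above the rest at 17 ± 7.0 FPKM (SD over the 8 libraries), and it was above the next gene in 8 of 8 libraries. Fcmr followed at 3.18 ± 1.45 FPKM and lay above Fcer2a (2.19 ± 1.16 FPKM) in 8 of 8. Fcer2a, Fcgr2b (1.85 ± 0.77 FPKM), Fcrla (1.79 ± 1.05 FPKM) and Fcgr3 (1.43 ± 0.581 FPKM) had no fixed order, since each lay above the next in only 6, 6 and 5 of 8 libraries. Fcgr4 (0.752 ± 0.228 FPKM), Fcrl1 (0.526 ± 0.304 FPKM) and Fcgrt (0.331 ± 0.18 FPKM) came next, with differences between neighbours inside their spread. Fcgr1 was lowest at 0.0838 ± 0.0843 FPKM.

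Fcgr1 encodes the high-affinity IgG receptor of monocytes and macrophages (chromosome 3, 96282909 to 96293969, GRCm38). It had 21, 8, 7 and 34 expected counts in PM2.5 replicates 9, 17, 18 and 21, against 5, 3, 1 and 15 in PBS replicates 4, 10, 12 and 16. In CPM these were 0.261, 0.147, 0.130 and 0.404 with PM2.5, against 0.0457, 0.0280, 0.0135 and 0.136 with PBS. All PM2.5 libraries but replicate 18 lay above every PBS library, and PBS replicate 16 lay just above PM2.5 replicate 18. With no filter on low counts Fcgr1 had a log2 fold change of 2.01 (SE 0.573, edgeR adjusted p = 0.0198), where that fit called 3.46% of 18035 genes. The call was lost when PM2.5 replicate 9 or 21, or any PBS replicate but 16, was left out (edgeR adjusted p = 0.0538 to 0.205), and with library totals (1.53, adjusted p = 0.18). DESeq2 without a filter gave 2.05 (SE 0.711, unadjusted p = 0.00393) and no adjusted p for this gene, in a fit that called 2.02% of all genes, Fcrl1 among them. In 5 fits that left out 1 library and kept the filter Fcgr1 was tested, at 1.76 to 2.22, and it was called in none (edgeR adjusted p = 0.116 to 0.323).

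Fcgr3 encodes the low-affinity activating IgG receptor found on most mouse myeloid cells and on natural killer cells (chromosome 1, 171051174 to 171064935). It was at 1.59, 1.41, 1.35 and 2.04 CPM in PM2.5 replicates 9, 17, 18 and 21, against 1.35, 0.979, 0.878 and 1.76 CPM in PBS replicates 4, 10, 12 and 16. The groups overlapped, with PBS replicate 16 above 3 of the PM2.5 libraries. This was a log2 fold change of 0.36 (SE 0.222, edgeR adjusted p = 0.387). Fcgr3 lies beside Fcgr2b and shares sequence with it: the main coding transcripts have an identical run of 129 bases, and 12.8% of the 50-base windows of the Fcgr3 transcript occur in that of Fcgr2b. With 100-base windows the share was 3.53%. Reads that lie wholly within a shared stretch cannot be assigned to either gene by sequence, so the split of such reads is an estimate. No 50-base window was shared between Fcgr4 and either of them.

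Fcgr4 encodes an activating IgG receptor of mouse neutrophils and nonclassical monocytes (chromosome 1, 171018920 to 171029761). It was at 0.747, 1.39, 0.444 and 0.618 CPM in PM2.5 replicates 9, 17, 18 and 21, against 0.512, 0.532, 0.783 and 0.790 CPM in PBS replicates 4, 10, 12 and 16. PM2.5 replicate 17 was the highest library and PM2.5 replicate 18 the lowest, so the PM2.5 group spanned the PBS group. Fcgr4 had a log2 fold change of 0.29 (SE 0.301, edgeR adjusted p = 0.635), and of -0.10 without PM2.5 replicate 17 (edgeR adjusted p = 0.888).

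The promoters of these receptors are shown because the activating receptors and some B cell receptors share a short sequence just upstream of the start. RefSeq sequence (GRCm38.p6) was matched for all 10 genes, and GAGGAA, the core of the site bound by the myeloid and B cell factor PU.1, was searched on both strands from 250 bases before to 50 after the start. It was present in 6 of 10 members (Fcgr1, Fcgr3, Fcgr4, Fcmr, Fcrl1, Fcrla) and in 28.3% of 27025 promoters. The EBF1 palindrome and the octamer ATTTGCAT, searched the same way, were in 0 of 10 members and in 0.914% and 1.75% of all promoters. The 100 bases before the start follow for 5 of the 6, on the gene's strand, with the match in capitals (TTCCTC is GAGGAA on the other strand).
Fcgr1, chr3:96293970-96294069, minus strand: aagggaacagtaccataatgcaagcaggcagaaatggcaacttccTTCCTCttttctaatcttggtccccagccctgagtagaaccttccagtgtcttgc
Fcgr3, chr1:171059404-171059503, minus strand: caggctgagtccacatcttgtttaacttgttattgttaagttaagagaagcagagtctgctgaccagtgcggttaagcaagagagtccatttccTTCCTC
Fcgr4, chr1:171018826-171018925, plus strand: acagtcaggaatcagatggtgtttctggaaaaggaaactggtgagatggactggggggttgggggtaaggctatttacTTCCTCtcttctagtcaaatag
Fcrl1, chr3:87376287-87376386, plus strand: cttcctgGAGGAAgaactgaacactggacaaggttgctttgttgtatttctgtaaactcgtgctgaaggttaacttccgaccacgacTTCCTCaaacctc
Fcrla, chr1:170927584-170927683, minus strand: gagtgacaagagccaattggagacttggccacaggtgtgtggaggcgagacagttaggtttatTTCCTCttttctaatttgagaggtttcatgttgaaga
Genes with the match were found on both sides of the comparison, with positive fold changes for Fcgr3 and Fcgr4 and negative ones for Fcrl1 and Fcrla. The match is a description of these letters and does not show binding.

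Fcer1g encodes the gamma chain that carries the signal of Fcgr1, Fcgr3 and Fcgr4 (chromosome 1, 171229572 to 171234365). It was at 7.24, 5.46, 5.92 and 10.9 CPM in PM2.5 replicates 9, 17, 18 and 21, against 6.13, 4.11, 5.64 and 4.60 CPM in PBS replicates 4, 10, 12 and 16. PM2.5 replicate 21 stood highest, and PM2.5 replicates 17 and 18 lay within the PBS range. For Fcer1g the log2 fold change was 0.53 (SE 0.209, edgeR adjusted p = 0.203). It was 0.28 without PM2.5 replicate 21, 0.83 without replicates 17 and 18 and 0.13 without replicates 9 and 21 (edgeR adjusted p = 0.441, 0.167 and 0.777 in that order).

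Fcgr2b encodes the inhibitory IgG receptor (chromosome 1, 170958617 to 170976547). It was at 1.94, 2.20, 1.52 and 3.09 CPM in PM2.5 replicates 9, 17, 18 and 21, against 1.87, 2.04, 1.42 and 1.74 CPM in PBS replicates 4, 10, 12 and 16. The groups overlapped apart from PM2.5 replicates 17 and 21, which lay above every PBS library. The log2 fold change was 0.31 (SE 0.202, edgeR adjusted p = 0.419), and 0.09 without PM2.5 replicate 21 (edgeR adjusted p = 0.84). Retained intron or processed transcripts took 16.1% to 24.0% of Fcgr2b counts in PM2.5 libraries and 17.4% to 36.8% in PBS libraries. The Fcgr2b fold change and the ratios to Fcgr2b include these transcripts. An exon of the opposite strand gene Gm38204 overlaps 155 exon bases of Fcgr2b, and Gm38204 itself had 0 counts.

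The Fcgr2b transcripts differ by an exon of 141 bases that lengthens the cytoplasmic tail, included in the form typical of B cells and skipped in the form typical of myeloid cells. Its sequence is shown because the transcript counts turn on it, with capitals for the 57 bases that transcript Fcgr2b-203 keeps and lower case for the 84 bases that only the transcripts with the whole exon keep.
Fcgr2b exon, GRCm38, chr1:170963325-170963465, minus strand: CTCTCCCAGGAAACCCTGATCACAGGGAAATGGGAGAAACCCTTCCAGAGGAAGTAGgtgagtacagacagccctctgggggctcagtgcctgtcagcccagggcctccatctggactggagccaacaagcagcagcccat
Fcgr2b-202 lacks this exon altogether. The whole exon was included in 37.5%, 43.6%, 39.9% and 43.3% of the coding counts in PM2.5 replicates 9, 17, 18 and 21, against 32.6%, 46.0%, 40.4% and 71.6% in PBS replicates 4, 10, 12 and 16. PBS replicate 16 stood apart, and the other 7 libraries lay between 32.6% and 46.0%. The group means were 41.1% ± 2.92 with PM2.5 and 47.6% ± 16.9 (SD, n = 4 each) with PBS, a difference inside the spread of the PBS libraries. The shares rest on 66.2 to 218.3 estimated counts per PM2.5 library and 86.7 to 141.1 per PBS library. One of the including transcripts also has a longer last exon than Fcgr2b-202, so the authors' estimate of these transcripts used reads outside the exon as well. On FPKM, which divides by that length, the mean share was lower in both groups, at 20.9% with PM2.5. The PBS mean on FPKM, the value to set beside it, was higher than this and is given in the last section.

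**Figure D3:**
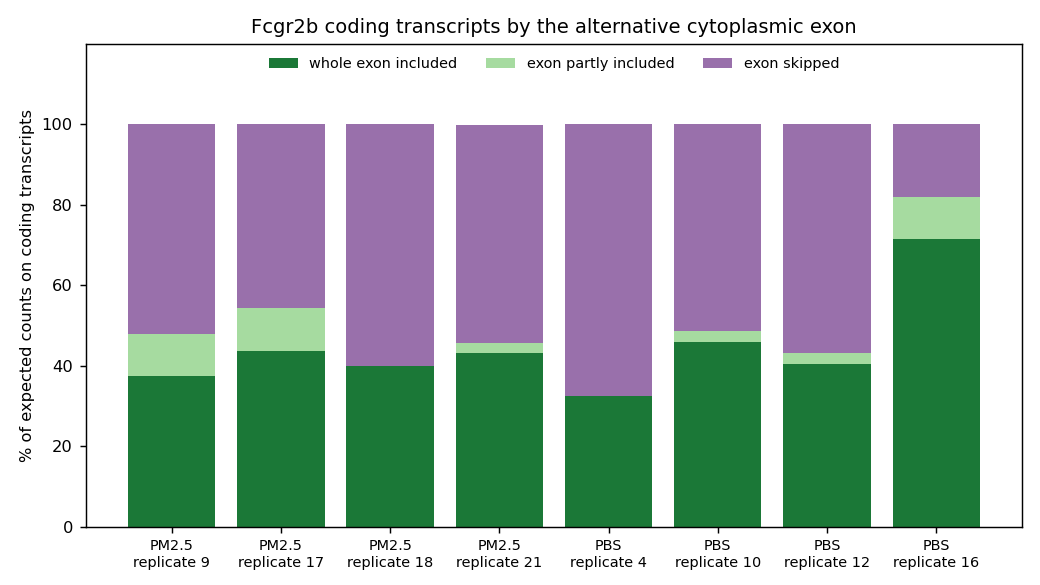
Share of the expected counts on coding Fcgr2b transcripts (y axis, %) that include, partly include or skip the alternative exon, 1 bar per library with PM2.5 left and PBS right. PBS replicate 16 has the whole exon in 71.6%, and the other 7 bars have 32.6% to 46.0%.

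Fcgrt encodes FcRn, the receptor that recycles IgG inside cells and so prolongs its life in blood (chromosome 7, 45092990 to 45103851). It was at 0.261, 0.806, 0.296 and 0.641 CPM in PM2.5 replicates 9, 17, 18 and 21, against 0.293, 0.187, 0.243 and 0.600 CPM in PBS replicates 4, 10, 12 and 16. Both groups held libraries at the low and the high end. Its log2 fold change was 0.58 (SE 0.402, edgeR adjusted p = 0.448). It was 0.28 without PM2.5 replicate 17 and 1.04 without PBS replicate 16 (edgeR adjusted p = 0.772 and 0.225 in that order).

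Fcrl1, an Fc receptor-like protein of the B cell surface (chromosome 3, 87376387 to 87402934), had the widest difference among the tested members. It was at 0.311, 0.476, 0.555 and 0.725 CPM in PM2.5 replicates 9, 17, 18 and 21, against 1.01, 0.961, 0.918 and 1.07 CPM in PBS replicates 4, 10, 12 and 16. All 4 PM2.5 libraries were below all 4 PBS libraries, and the PBS libraries lay close together. Means were 0.517 ± 0.172 CPM in PM2.5 libraries and 0.989 ± 0.0659 CPM in PBS libraries (SD, n = 4 each). The log2 fold change was -0.93 (SE 0.247, edgeR adjusted p = 0.0656), so it was not called. DESeq2 called it (-0.94, SE 0.268, adjusted p = 0.0209), as did edgeR with no filter (-0.95, adjusted p = 0.0141) and edgeR without PM2.5 replicate 21 (-1.17, adjusted p = 0.0455). Without any other single library edgeR gave -0.77 to -0.98 (adjusted p = 0.0746 to 0.155).

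Fcrla, a relative of the Fc receptors that stays inside B cells (chromosome 1, 170917576 to 170927583), was at 1.22, 1.39, 1.33 and 1.66 CPM in PM2.5 replicates 9, 17, 18 and 21. It was at 1.87, 2.12, 1.36 and 2.41 CPM in PBS replicates 4, 10, 12 and 16. PBS replicate 12 lay among the PM2.5 libraries and the other PBS libraries lay above them. The log2 fold change was -0.47 (SE 0.191, edgeR adjusted p = 0.216).

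Fcmr, the IgM receptor of lymphocytes (chromosome 1, 130865669 to 130880791), was at 3.07, 3.45, 3.16 and 3.84 CPM in PM2.5 replicates 9, 17, 18 and 21. It was at 4.12, 4.42, 3.35 and 5.03 CPM in PBS replicates 4, 10, 12 and 16, and again only PBS replicate 12 lay among the PM2.5 libraries. Its log2 fold change was -0.33 (SE 0.159, edgeR adjusted p = 0.29).

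Fcer2a, the low-affinity IgE receptor CD23 of B cells (chromosome 8, 3681737 to 3694175), was at 2.64, 3.21, 2.70 and 3.11 CPM in PM2.5 replicates 9, 17, 18 and 21. It was at 3.70, 4.51, 2.13 and 4.10 CPM in PBS replicates 4, 10, 12 and 16, where replicate 12 was the lowest of all 8 libraries. The log2 fold change was -0.31 (SE 0.196, edgeR adjusted p = 0.398), and -0.49 without PBS replicate 12 (edgeR adjusted p = 0.119). The upstream start accounted for 92.5% ± 6.35 of Fcer2a counts in PM2.5 libraries and 90.3% ± 5.99 in PBS libraries (SD, n = 4 each).

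Ratios within a library do not depend on how libraries are scaled, so the receptor classes were also set against each other in FPKM. They are scores over chosen genes and carry no test. The 3 activating receptors together were 0.457, 0.425, 0.344 and 0.448 of the 4 B cell receptors in PM2.5 replicates 9, 17, 18 and 21, against 0.220, 0.172, 0.296 and 0.271 in PBS replicates 4, 10, 12 and 16. Every PM2.5 library was above every PBS library. The mean log2 ratio was -1.27 ± 0.19 in PM2.5 libraries and -2.09 ± 0.35 in PBS libraries (SD, n = 4 each), a difference of 0.82 that stayed between 0.67 and 0.93 when single libraries were left out. Fcer1g per B cell receptor was 2.13 to 4.51 with PM2.5 and 1.24 to 2.66 with PBS, where PBS replicate 12 reached into the PM2.5 range.

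Activating and inhibitory receptors were not separated between the groups. Activating receptors per Fcgr2b were 1.28, 1.92, 1.32 and 1.19 in PM2.5 replicates 9, 17, 18 and 21, against 1.02, 0.768, 1.35 and 1.65 in PBS replicates 4, 10, 12 and 16. The PM2.5 libraries lay above 2 PBS libraries and overlapped the other 2. The difference in mean log2 ratio was 0.29, with SDs of 0.31 for PM2.5 and 0.48 for PBS. It ran from 0.09 (without PBS replicate 10) to 0.46 (without PBS replicate 16) with single libraries left out, and was 0.17 on CPM. For Fcer1g per Fcgr2b it was 0.37, with SDs of 0.13 for PM2.5 and 0.47 for PBS. Fcgr2b per B cell receptor was 0.222 to 0.375 with PM2.5 and 0.164 to 0.224 with PBS, which overlapped. Within the B cell receptors, Fcrl1 per Fcmr was 0.092 to 0.155 with PM2.5 and 0.165 to 0.221 with PBS, with no overlap. That ratio was added after seeing the data, and Fcrl1 alone already had no overlap, so it is not a separate result.

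**Figure D4:**
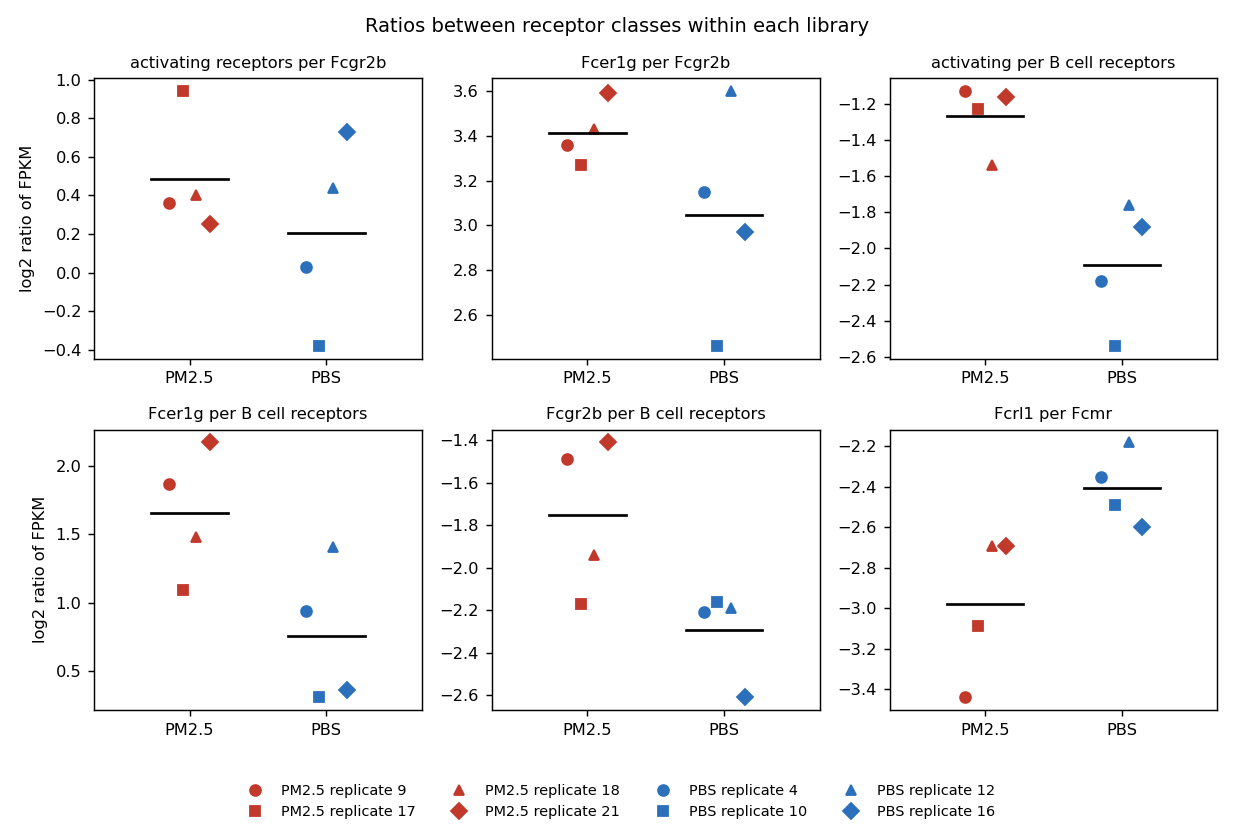
Log2 ratio of FPKM (y axis, a separate range in each panel) between receptor classes within each library, 1 point per library and a line at the group mean, PM2.5 left and PBS right. The groups are apart for activating receptors per B cell receptors (-1.27 and -2.09 on average) and for Fcrl1 per Fcmr, and overlap in the other 4 panels.

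Markers of the cell types in the layer were measured in the same fit. Over all 10361 genes tested, 5632 log2 fold changes were positive and 4729 negative, with 0.463% of genes called higher and 1.14% lower. Neutrophil markers were positive in 8 of 8 tested genes (5 called higher), and their summed level was 28.6 to 56.0 CPM with PM2.5 and 14.0 to 27.6 CPM with PBS. Classical monocyte markers were positive in 7 of 8 (3 called higher), at 56.8 to 115 CPM with PM2.5 and 44.7 to 77.7 CPM with PBS. Nonclassical monocyte markers were positive in 5 of 8 with none called (median 0.02), at 26.7 to 38.1 CPM with PM2.5 and 26.6 to 35.0 CPM with PBS. B cell markers were negative in 10 of 10 (3 called lower), at 38.1 to 49.0 CPM with PM2.5 and 44.8 to 72.5 CPM with PBS. Natural killer cell markers were positive in 6 of 7 (1 called higher), at 5.40 to 10.1 CPM with PM2.5 and 4.28 to 6.0 CPM with PBS. Positive values were not limited to myeloid and natural killer cells. Platelet markers were positive in 6 of 6 (median 0.35), erythroid markers in 8 of 8 (median 0.56) and T cell markers in 7 of 8 (median 0.19), with none called. Platelet markers summed to 465 to 773 CPM with PM2.5 and 385 to 686 CPM with PBS. No marker of these lists was at 0 in all libraries, and the part of cell numbers in the Fc receptor values was not tested.

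Of 9 other Fc receptor genes, only Trim21, a cytosolic antibody receptor, was tested (log2 fold change 0.42, SE 0.290, edgeR adjusted p = 0.444). Without PM2.5 replicate 21 it was at 0.09 (edgeR adjusted p = 0.898). The IgE receptor chains of mast cells and basophils were near the limit, with 16 and 6 counts in all for Fcer1a and 19 and 29 for Ms4a2 in PM2.5 and PBS libraries. The IgA and IgM receptor Fcamr had 0 counts in all 8 libraries, where a count of 0 allows up to 3 counts per library. Fcrls, an Fc receptor-like gene of microglia named after its values were seen, had 0, 1, 2 and 8 counts in PM2.5 replicates 9, 17, 18 and 21, against 31, 0, 25 and 33 in PBS replicates 4, 10, 12 and 16. It was under the filter and was not tested, and Tmem119, another microglial marker, had 0 counts with PM2.5 and 12 with PBS.

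Receptors that pair with the gamma chain were positive in 5 of 5 tested genes (median 0.42), of which Ncr1, an activating receptor of natural killer cells, rose by 1.40 on the log2 scale (SE 0.344, edgeR adjusted p = 0.0481). That call was lost without any single library other than PM2.5 replicate 9 (edgeR adjusted p = 0.0537 to 0.159), and with library totals (0.72, adjusted p = 0.277). Oscar, another partner, had 0 counts throughout. Of the other ITAM adaptors 0 of 4 were called (median -0.15), with the myeloid adaptor Tyrobp at 0.37 (SE 0.218) and the B cell receptor chains Cd79a at -0.27 (SE 0.211) and Cd79b at -0.22 (SE 0.197).

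Genes that carry the activating signal had a median of 0.14 over 20 tested, 14 positive and 6 negative, and 0 were called. Over all genes tested the median was 0.04, with 5632 positive and 4729 negative, and 1.60% were called. Fgr, a kinase that phosphorylates receptor tyrosine motifs in myeloid cells, was at 0.77 (SE 0.204, edgeR adjusted p = 0.0649). The docking adaptor Gab2 was at 0.64 (SE 0.184, edgeR adjusted p = 0.0888). Fgr was at 2.5, 4.31, 2.72 and 3.62 CPM in PM2.5 replicates 9, 17, 18 and 21, against 1.78, 1.65, 1.58 and 2.64 CPM in PBS replicates 4, 10, 12 and 16. PBS replicate 16 lay above PM2.5 replicate 9, and the groups were otherwise apart. Syk, the kinase that binds phosphorylated ITAMs, was at -0.57 (SE 0.173, edgeR adjusted p = 0.109). It was at 22.9, 19.3, 20.7 and 20.8 CPM in PM2.5 replicates 9, 17, 18 and 21, against 32.4, 35.4, 28.4 and 27.7 CPM in PBS replicates 4, 10, 12 and 16, with no overlap. Blnk, an adaptor of B cell receptor signalling, was at -0.51 (SE 0.189, edgeR adjusted p = 0.176), also with no overlap. In the other direction Gab2 had no overlap, at 1.87 to 2.9 CPM with PM2.5 and 1.31 to 1.78 CPM with PBS. Nor did Vav3 of the same list, at 2.38 to 3.05 CPM with PM2.5 and 1.44 to 2.15 CPM with PBS. Over all genes tested, 6.64% were lower and 3.02% higher with no overlap.

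The inhibitory signalling list had a median of 0.05 over 8 tested, with 1 called lower. Over all genes tested the median was 0.04 and 1.14% were called lower. Cblb, a ubiquitin ligase that restrains receptor signalling, fell by 0.86 on the log2 scale (the fold change was -0.86, SE 0.170, edgeR adjusted p = 0.0174). It was at 4.51, 5.17, 4.37 and 5.02 CPM in PM2.5 replicates 9, 17, 18 and 21, against 7.97, 11.2, 8.51 and 7.03 CPM in PBS replicates 4, 10, 12 and 16. All PM2.5 libraries were below all PBS libraries, as for 6.64% of all genes tested. The call was lost without PM2.5 replicate 18 (edgeR adjusted p = 0.0634) or PBS replicate 10 (edgeR adjusted p = 0.0625), at -0.82 and -0.75. Inpp5d, which encodes SHIP1, the phosphatase that Fcgr2b recruits, was at -0.06 (SE 0.168, edgeR adjusted p = 0.877).

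The genes whose levels ran most like 3 of the receptors over the 8 libraries were found by the mean absolute difference in log2 CPM, each gene centred on its own mean. For Fcer1g these were Dynlt1b, Parn, Mif, Polr2g and Cox6b1, which differed from it by 0.095 to 0.126, where Fcer1g itself deviated from its mean by 0.292. For Fcgr4, with a deviation of 0.388, they were Lpcat2, Lgmn, Trem3, Ankrd46 and Grina at 0.147 to 0.186. For Fcer2a, with a deviation of 0.276, they were Gga2, Map4k1, Armc5, Jtb and Slc28a2 at 0.074 to 0.093. None of these 15 genes was called, where 1.60% of all genes tested were called. They were picked for running like members that were themselves not called, so this count is not a separate result.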

How the data were processed

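The deposited table holds 118783 Ensembl transcripts with expected counts, estimated by the authors without normalization, and FPKM, which the authors scaled by length and library, per the file headers. Reads were handled with HISAT2 2.0.1, cutadapt 1.9.1 and bcl2fastq 2.17.1.14 on GRCm38, per the submitters' processing notes. The sources used here name no counting tool and no strand setting. Here 116710 transcripts were matched to GENCODE M21, summed to 35944 genes and rounded. Counts were tested with edgeR 4.0.16 in R 4.3.3 (two-sided quasi-likelihood test, filterByExpr with a minimum count of 10 and total of 15, TMM scaling, group as the only term). An SE is the log2 fold change over the square root of F. FPKM was summed over transcripts. Settings tried were other scalings, filters, an erythroid covariate, limma 3.58.1 on log2(FPKM + 1) and log2(FPKM + 0.1), DESeq2 1.42.0 and libraries left out. No 2 libraries agreed within sampling noise. The code was tested on simulated data. The members and lists were chosen with earlier results of these data known. Ratios other than those to Fcgr2b and of activating to B cell receptors, and combinations with no filter, were added after seeing the data. All 10 members are named, from each pathway list the called genes (up to 6) or else up to 3 by smallest p, and for 3 members the 5 genes most alike, leaving out predicted genes, RIKEN clones, pseudogenes and receptor segments. Oscar, Fcamr, Fcer1a, Ms4a2, Fcrls, Tmem119, Syk, Blnk, Vav3 and Inpp5d were named for their role or after their values were seen. A gene that this rule names is not reported here.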

Additional observations from a re-analysis of the deposited data

Results flagged for a closer look

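Among 38 sets of 4 libraries checked for a sample far from the others, chance gives about 1 in 20. PBS replicate 16 had a log2 ratio of Fcgr2b per B cell receptor of -2.61, where the nearest PBS library was at -2.21.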

How the results depend on the processing

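No paired analysis was possible because the groups share no replicate number. Called genes over all tested, 166 by edgeR, were 483 with library totals (8 higher and 475 lower, against 48 and 118), 624 with no filter, 373 with DESeq2, 8 without PM2.5 replicates 17 and 18, and 0 with the erythroid covariate (1054 at an unadjusted p under 0.05) and 0 with limma at either pseudocount (2100 and 2126). Leaving out 1 library gave 31 to 192, the lowest without PBS replicate 10. Members called, 0 by edgeR, were 1 with library totals, 1 with haemoglobin removed, 1 with DESeq2 (each time Fcrl1), 2 with no filter (Fcgr1 and Fcrl1), and 0 to 1 with 1 library left out. Settings chosen after seeing the data gave 1 with DESeq2 and no filter, 1 with no filter and library totals, and 0 to 3 with no filter and 1 library left out.

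Some log2 fold changes changed sign, none of them past the threshold, and the cause was not tested. With library totals Fcgr3 was at -0.20, Fcgr4 at -0.28, Fcgr2b at -0.25, Fcgrt at -0.03, Trim21 at -0.08 and Tyrobp at -0.20, and the members had the same values with no filter as well. With haemoglobin removed Fcgr4 was at -0.07 and Fcgr2b at -0.03. With the erythroid covariate Fcgr4 was at -0.20 and Cd79a at 0.17. By limma, with pseudocounts of 1 and 0.1, Fcgr3 was at -0.11 and -0.16, Fcgr4 at -0.13 and -0.31, Fcer1g at -0.06 and -0.07, Fcgr2b at -0.27 and -0.41, Fcgrt at -0.02 and -0.01, and Tyrobp at -0.12 and -0.13. With 1 library left out Fcgr4 ran from -0.10 (without PM2.5 replicate 17, and -0.11 there with no filter) to 0.47, and Cd79b from -0.35 to 0.01 (without PBS replicate 16). On FPKM the Fcgr2b exon share was 20.9% with PM2.5 and 31.6% with PBS. The receptor ratios kept within 1 SD with CPM in place of FPKM, and counts of 7 to 34 for Fcgr1 in PM2.5 libraries, against 1 to 15 in PBS libraries, limit what can be said of it.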
